A study of Rattus norvegicus with 42 samples.

Results

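The genes described here were 8 organizers of synapses: the neurexins Nrxn2 and Nrxn3, the neuroligins Nlgn1, Nlgn2 and Nlgn3, the inhibitory scaffold gephyrin (Gphn), and the leucine-rich repeat proteins Lrrtm1 and Lrrtm2. They were found by gene symbol in a table of 15516 transcripts of 14304 symbols, which held 1 transcript for each of the 8 symbols. Male Sprague Dawley rat pups had received a single intraperitoneal injection on postnatal day 7 of saline vehicle (VEH, n = 13), phenobarbital at 75 mg/kg (PB, n = 14) or levetiracetam at 200 mg/kg (LEV, n = 14), and whole hippocampi were taken 72 h later for RNA sequencing. Each library came from 1 animal, with 1 animal per litter in each treatment group. One further VEH animal, which the labels mark as excluded, was left out. Each drug was given at 1 dose and examined at 1 time point, in 1 strain and in males.

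Of the 8 genes, 1 passed the adjusted test for PB against VEH, where 5.39% of all 13062 transcripts tested did. With the study's fold limit added, 0 of the 8 and 0.605% of all transcripts passed. The 1 call was lost in 3 of 15 alternative fits described below. Lrrtm1 fell by 0.17 on the log2 scale after PB relative to VEH, which is a change of -11.3%, and it was also lower after PB than after LEV. For the other 7 genes the PB comparison did not pass the test, with log2 fold changes between -0.12 for Nrxn3 and -0.01 for Lrrtm2. No gene of the set passed the test after LEV. In every comparison the 95% confidence intervals of all 8 genes lay inside the fold limit the study set for a changed transcript, 0.32 on the log2 scale in either direction.

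Neurexins are presynaptic adhesion proteins that reach across the synaptic cleft to bind several families of postsynaptic partners. Neuroligins and the LRRTM proteins are such partners: neuroligin 1 and the LRRTMs act mainly at excitatory synapses, neuroligin 2 at inhibitory synapses, and neuroligin 3 at both. Gephyrin forms the scaffold that anchors glycine and GABA-A receptors beneath the inhibitory postsynaptic membrane, and it binds neuroligin 2. The first postnatal weeks are a period of intense synapse formation in the rat hippocampus, and both drugs act on synapses, phenobarbital as a positive modulator of GABA-A receptors and levetiracetam through the vesicle protein SV2A.

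In the rn6 annotation the genes were spread over 7 chromosomes. Nrxn2 was at chr1:221801524-221908048, Nrxn3 at chr6:112133204-114067565, Nlgn1 at chr2:111058792-111792963, Nlgn2 at chr10:56431588-56444845, Nlgn3 at chrX:71199516-71221952 and Gphn at chr6:101327874-101859167. Lrrtm1 (chr4:108301129-108316374) lay within the span of Ctnna2, and Lrrtm2 (chr18:28012877-28017926) within that of Ctnna1, the genes of 2 alpha-catenins. These are overlaps of whole gene spans; overlap of exons was not examined. The counting was not stated to use strand, so reads from any stretch that both genes transcribe cannot be assigned by strand. The other 6 genes overlapped no other transcript of the table. Neurexins and neuroligins are heavily spliced, and the current RefSeq annotation (GRCr8) lists 51 transcripts for Nrxn3 and 27 for Nrxn2. Because the table had a single row per gene, the alpha and beta forms and the splice variants were not separated.

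Libraries held 9499492 to 14488134 estimated counts in VEH, 9586794 to 13140913 in PB and 10112050 to 12482915 in LEV. Normalized counts are estimated counts scaled to the mean effective library size, and they compare animals but not genes, since transcript lengths were not used. The counting error of the 8 genes was between 1.01% (Nrxn2) and 3.69% (Nlgn1) of their level, whereas animals of the same group and series differed by 5.21% (Gphn) to 11% (Nrxn3), so the spread between animals exceeded the counting error for each gene. Sample codes came in 2 forms, one for animals 1 to 6 of each group (series 1) and another for animals 7 to 14 (series 2). Labels do not say what the code form stands for, and the series was kept as a term in the main tests. Some of the alternative fits had no series term. The labelled tissue was checked with 10 hippocampal neuron markers, all of them detected. Several, such as Map2, Syp and Tubb3, are expressed by neurons in general, so their detection does not single out hippocampus. Summed, these 10 ranged from 72900 to 81000 normalized counts in VEH, from 56800 to 76200 in PB and from 66800 to 79100 in LEV. In bulk tissue, fewer cells of a type and less RNA per cell cannot be told apart.

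Lrrtm1 encodes a postsynaptic adhesion protein that binds neurexins and promotes excitatory synapses. Its normalized count ran from 1255 through a median of 1421 to 1525 in VEH. After PB the lowest value was 1057, the median 1281 and the highest 1338. After LEV the values ran from 1058 through 1413 to 1520. All 14 PB animals were below the VEH median, and 6 of them were below the lowest VEH animal. Of the 13 VEH animals, 11 were above the highest PB animal, as were 9 of the 14 LEV animals.

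**Figure D1:**
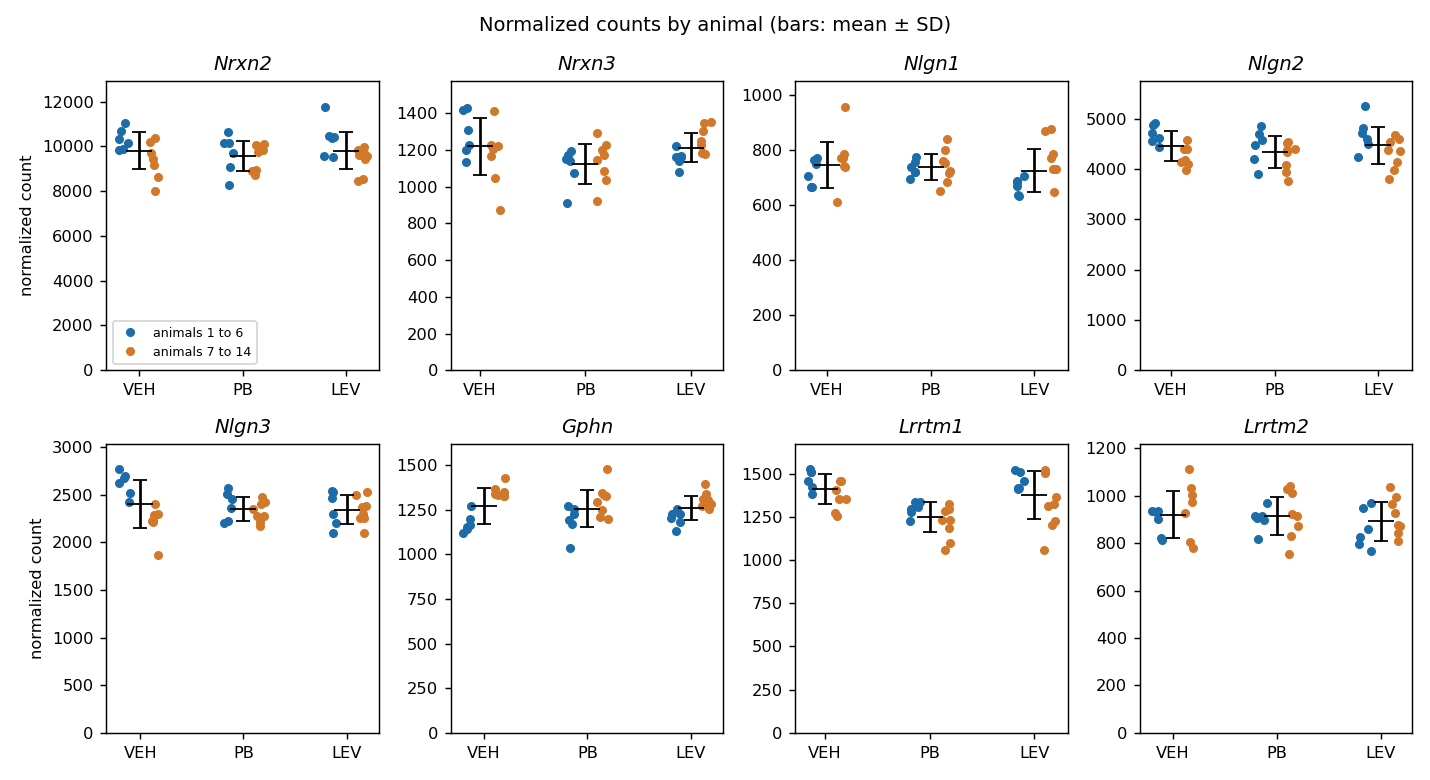
Normalized counts (y axis, from 0) of the 8 genes in each animal of the VEH, PB and LEV groups, with animals 1 to 6 in blue and animals 7 to 14 in orange; black bars give the mean and SD of each group. Lrrtm1 is the gene in which the PB mean (1249) sits lowest relative to the VEH mean (1411), and the groups overlap for all 8 genes when both series are pooled.

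Mean Lrrtm1 was 1411 ± 86.5 (SD, n = 13) in VEH, 1249 ± 85.6 (SD, n = 14) in PB and 1375 ± 137 (SD, n = 14) in LEV. The log2 fold change of PB against VEH was -0.17 (SE 0.0391, 95% interval -0.25 to -0.09, adjusted p = 0.00624, quasi-likelihood F test in edgeR, Benjamini-Hochberg adjusted over 13062 transcripts). Over all transcripts tested, 5.39% passed this test and 3.46% passed in the lower direction, against 1 of the 8 genes here. Each of the 14 PB animals was below the VEH mean of its own series. With that fold limit added, 0.605% of all transcripts and 0 of the 8 genes passed (2 of the 8 had an unadjusted p under 0.05).

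Within series 1 the Lrrtm1 ranges did not overlap: VEH animals lay between 1380 and 1525, and PB animals between 1228 and 1338. Such separation in series 1 held for 1.36% of all transcripts. In series 2 the VEH range of 1255 to 1458 overlapped the PB range of 1057 to 1324; 0.85% of all transcripts were separated there. The fitted log2 fold change was -0.18 (SE 0.0594) in series 1 and -0.17 (SE 0.0535) in series 2, and the difference between the series was 0.01 (SE 0.08, adjusted p = 0.986, edgeR F test, Benjamini-Hochberg adjusted). In this joint fit the adjusted p was 0.264 in series 1 and 0.0482 in series 2 (edgeR F test). When each series was fitted alone, edgeR gave an adjusted p of 0.0275 in series 1 and 0.141 in series 2, so which series passed alone depended on the fit. Over all transcripts 64 passed in series 1 alone and 534 in series 2 alone.

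Cell type markers were examined beside this result. Over all transcripts tested, 48.1% had a PB against VEH log2 fold change below 0 and 3.46% passed as lower. Of the 10 hippocampal neuron markers, 9 were below 0 and 2 fell, Camk2a (-0.26) and Syp (-0.21). Their sum had its VEH median at 76800, its PB median at 70500 and its LEV median at 76300. Of 8 interneuron transcripts, 3 fell after PB (Sst, Slc32a1 and Pvalb). The 8 included duplicate rows of Npy with identical values. The median of the sum of the 8 was 5840 after PB, against 7040 with VEH and 6950 after LEV. Skeletal muscle transcripts, which should be absent from hippocampus, summed to 127 to 505 normalized counts in VEH, 79.2 to 165 in PB and 112 to 611 in LEV; 3 of the 19 were abundant enough to test and all 3 fell after PB. With the neuron markers as a covariate, an alternative added after seeing the data, Lrrtm1 was at -0.12 (adjusted p = 0.14, edgeR F test, Benjamini-Hochberg adjusted). With the muscle transcripts as a covariate it was at -0.15 (adjusted p = 0.11, the same edgeR test). Transcripts of both marker sets themselves fell after PB, so these 2 fits cannot separate the markers from the treatment. In both fits fewer of all transcripts passed than without a covariate, so the loss of calls was not confined to Lrrtm1. In each of them 1 of the 8 genes had an unadjusted p under 0.05, against 2 without a covariate. No share of all transcripts under this unadjusted limit was computed for either fit, so the count has no background to be read against. Choroid plexus transcripts summed to 283 to 56200 in VEH, 288 to 88300 in PB and 385 to 65600 in LEV, and 0 of 11 tested passed in edgeR (0 also at an unadjusted p under 0.05). Among 13 astrocyte transcripts 1 rose and 1 fell after PB, and 0 passed of 13 oligodendrocyte, 7 microglial and 6 endothelial transcripts (0, 1 and 3 at an unadjusted p under 0.05). The part of these cell types in the Lrrtm1 result was not tested beyond the fits given.

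Between the drugs, Lrrtm1 was lower after PB than after LEV by a log2 fold change of -0.14 (SE 0.0384, 95% interval -0.22 to -0.06, adjusted p = 0.0305, edgeR F test, Benjamini-Hochberg adjusted), and 13 of 14 PB animals were below the LEV mean of their series. It was the 1 gene of the 8 that passed, where 4.45% of all transcripts did; with the fold limit 0 of the 8 and 0.582% of all passed (2 of the 8 had an unadjusted p under 0.05). In series 1 the LEV animals, between 1410 and 1520, lay wholly above the PB animals, a separation found for 1.68% of all transcripts. In series 2 the LEV animals spread from 1058 to 1520 and overlapped the PB animals. The call was lost on leaving out any of 6 single animals (PB 7, PB 10, LEV 2, LEV 4, LEV 11 or LEV 12), with an adjusted p of up to 0.0657 in edgeR's test, and in 5 of 15 other alternatives. The 2 drugs differ in structure and were given at different doses, 75 and 200 mg/kg, so this is a comparison of the regimens used.

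**Figure D2:**
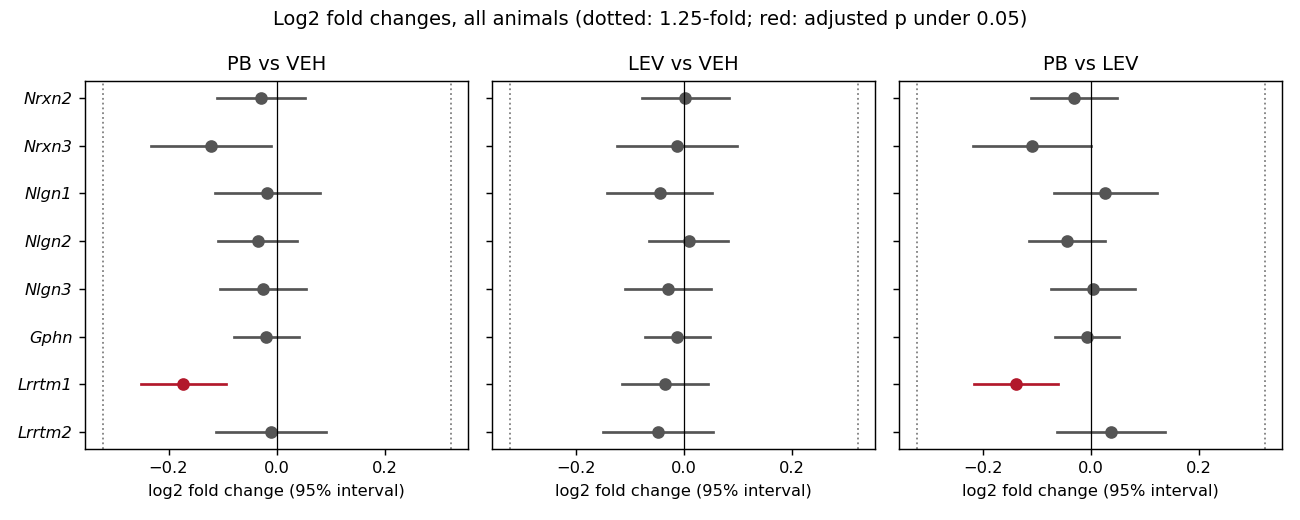
Log2 fold changes (x axis) with 95% intervals for the 8 genes in the 3 comparisons, all animals and both series; dotted lines mark the fold limit (0.32) and red marks an adjusted p under 0.05. Lrrtm1 is red in PB against VEH (-0.17) and in PB against LEV (-0.14), and every interval stays between the dotted lines.

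The overlapping gene Ctnna2, which encodes the neuronal alpha-catenin, was at 2301 ± 136 (SD, n = 13) in VEH and 2255 ± 143 (SD, n = 14) in PB. Its log2 fold change of -0.03 did not pass the test (SE 0.0291, adjusted p = 0.581, edgeR F test, Benjamini-Hochberg adjusted). For Ctnna1, around Lrrtm2, the same comparison gave -0.03 (SE 0.0421, adjusted p = 0.72, the same edgeR test). Lrrtm2 itself, the nearest relative of Lrrtm1 in the set and a high-affinity neurexin ligand, ran from 779.7 through 930.2 to 1111 in VEH, from 756.2 through 913.2 to 1042 in PB, and from 766.8 through 874.7 to 1035 in LEV. The 3 groups overlapped over nearly their whole range. Its PB against VEH log2 fold change was -0.01 (SE 0.0503, 95% interval up to 0.09), beside -0.17 for Lrrtm1.

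The promoters of these 2 relatives are shown because 1 of them fell after PB and the other did not pass. The sequences are from RefSeq on the GRCr8 build, each covering the 250 bases before the annotated start, 5′ to 3′ on the gene's strand, with CpG dinucleotides in capitals. Lrrtm1 is at chr4:111259609-111259858 (plus strand) and Lrrtm2 at chr18:27096968-27097217 (minus strand). Promoters were matched by gene symbol. The counted Lrrtm1 transcript is not among those GRCr8 lists for the gene, so its promoter may differ from the one shown.
Lrrtm1: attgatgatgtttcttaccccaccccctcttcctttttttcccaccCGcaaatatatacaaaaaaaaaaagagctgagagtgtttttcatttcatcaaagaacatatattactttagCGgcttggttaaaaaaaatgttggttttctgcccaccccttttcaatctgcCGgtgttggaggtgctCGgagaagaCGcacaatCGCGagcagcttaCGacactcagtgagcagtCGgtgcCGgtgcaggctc
Lrrtm2: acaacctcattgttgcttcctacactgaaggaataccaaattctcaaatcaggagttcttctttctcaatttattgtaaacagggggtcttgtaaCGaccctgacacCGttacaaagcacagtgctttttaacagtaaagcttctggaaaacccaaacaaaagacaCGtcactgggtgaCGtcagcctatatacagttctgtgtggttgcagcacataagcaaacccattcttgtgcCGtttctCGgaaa
Lrrtm1 had 10 CpG dinucleotides in the printed window and Lrrtm2 had 6. Over the full window, which adds the 50 bases after the start, Lrrtm1 had 15, Lrrtm2 6, Nlgn1 10, Nlgn2 20, Nlgn3 16 and Gphn 41, with a median of 7 over 33469 promoters. Lrrtm2 held the cyclic AMP response element TGACGTCA from base 177 to base 184 of its window, a motif present in 1.83% of all promoters. The other motifs searched on both strands were the E-box CACGTG (6.42% of all promoters), the TATA box TATAAA (14.2%) and the GC box GGGCGG (33.1%). Lrrtm1, Nlgn1 and Nlgn3 held none of the 4, while Nlgn2 and Gphn held a GC box. These matches are letters in a window and were not related to the expression values.

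On the presynaptic side, Nrxn3 encodes a neurexin that acts at both excitatory and inhibitory contacts. Its normalized count ran from 874.4 through a median of 1222 to 1432 in VEH, from 914.3 through 1148 to 1294 in PB, and from 1081 through 1186 to 1355 in LEV. The groups overlapped, and VEH was the most spread of the 3, at 1222 ± 156 (SD, n = 13) against 1124 ± 109 (SD, n = 14) for PB and 1212 ± 78.8 (SD, n = 14) for LEV. The PB against VEH log2 fold change was -0.12 (SE 0.0551, 95% interval -0.23 to -0.01, unadjusted p = 0.0329, adjusted p = 0.2, edgeR F test, Benjamini-Hochberg adjusted), and 10 of 14 PB animals had less Nrxn3 than the VEH mean of their series. It therefore did not pass. By unadjusted p alone 20.2% of all transcripts did so, against 2 of the 8 genes, Lrrtm1 and Nrxn3. Without VEH animal 9, the VEH animal with the lowest Nrxn3 value, the log2 fold change was -0.16 and the adjusted p 0.0477 in the same edgeR test.

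Nrxn2, the other neurexin, had values from 8018 through 9889 to 11050 in VEH, from 8285 through 9787 to 10630 in PB, and from 8430 through 9655 to 11770 in LEV. Group means differed by less than the spread between animals, at 9802 ± 828 (SD, n = 13) in VEH, 9574 ± 674 (SD, n = 14) in PB and 9800 ± 825 (SD, n = 14) in LEV. The PB against VEH log2 fold change was -0.03 (SE 0.0401, 95% interval -0.11 to 0.05) and the LEV one 0.00.

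Among the postsynaptic neuroligins, Nlgn1, the excitatory member, had a VEH median of 749.3, a PB median of 729.7 and a LEV median of 717.4, with all 3 groups between 609.3 and 954.8. Nlgn2, the inhibitory member, had medians of 4438, 4395 and 4519, within 3768 to 5251. Nlgn3 had medians of 2405, 2353 and 2334, within 1864 to 2767. For none of the 3 did the groups separate. Their PB against VEH log2 fold changes were -0.02 (SE 0.0481), -0.04 (SE 0.0359) and -0.02 (SE 0.0394) for Nlgn1, Nlgn2 and Nlgn3. Against LEV, PB gave 0.03, -0.04 and 0.00 in the same order.

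Gphn, the scaffold to which neuroligin 2 binds, ran from 1122 through 1325 to 1428 in VEH, from 1034 through 1251 to 1478 in PB, and from 1134 through 1263 to 1395 in LEV. Means were 1270 ± 101 (SD, n = 13), 1256 ± 102 (SD, n = 14) and 1262 ± 67 (SD, n = 14). Gphn was the most tightly measured gene of the set: its PB against VEH log2 fold change of -0.02 had a 95% interval from -0.08 to 0.04.

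After LEV, with both series in the fit, 0 of the 8 genes passed the adjusted test in edgeR or in DESeq2, and 0 had an unadjusted p under 0.05 in either tool, where 0.00766% of all transcripts passed the former and 5.84% the latter in edgeR. With series 1 alone 0 of the 8 passed in edgeR and 3 had an unadjusted p under 0.05, while 346 transcripts of the whole table passed. The share of all transcripts under that unadjusted limit was not computed for series 1 alone. With both series the log2 fold changes lay between -0.05 (Lrrtm2) and 0.01 (Nlgn2). Their 95% intervals reached from -9.85% at the lowest, for Lrrtm2, to 7.09% at the highest, for Nrxn3. Lrrtm1 after LEV was at -0.03 (95% interval -0.11 to 0.04), and 10 of 14 LEV animals had less than the VEH mean of their series. PB against VEH and LEV against VEH share the VEH animals, and PB against LEV shares each drug group with one of them.

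In PB against VEH all 8 log2 fold changes were below 0, with a median of -0.03, where 48.1% of all transcripts were below 0 and their median was 0.00. The sign did not hold for each gene in each fit: in series 2 alone Nrxn2 and Nlgn3 were above 0, in series 1 alone Nlgn1, Gphn and Lrrtm2 were, with the neuron markers as a covariate Nlgn2, Nlgn3, Gphn and Lrrtm2 were, and with the excluded VEH animal put back Gphn and Lrrtm2 were. Lrrtm1 and Nrxn3 were below 0 in each of these fits. In 6 of the 8 genes the 95% interval included 0.

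The 2 series of animals were also compared, in the fit with 1 series term over the 3 groups. In 6 of 8 genes the level in series 2 differed from that in series 1 (adjusted edgeR F test), where 30.2% of all transcripts did. Gphn was higher in series 2 by 0.15 on the log2 scale (SE 0.0244, adjusted p = 8.42e-06, edgeR F test, Benjamini-Hochberg adjusted), and Nlgn1 by 0.10. In contrast, Nrxn2 (-0.10), Nlgn2 (-0.11), Nlgn3 (-0.09) and Lrrtm1 (-0.12) were lower in series 2. Nrxn3 and Lrrtm2 did not pass, at 0.01 and 0.07.

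A difference of the treatment effects between the series did not pass the test for any of the 8 genes, and the lowest unadjusted p-values were those of Nlgn3. Its log2 fold change after PB was -0.13 (SE 0.0527) in series 1 and 0.07 (SE 0.0475) in series 2, and after LEV -0.15 and 0.08. The VEH mean of Nlgn3 was 2619 ± 125 (SD, n = 6) in series 1 and 2218 ± 169 (SD, n = 7) in series 2, whereas the PB means were 2387 ± 150 (SD, n = 6) and 2326 ± 106 (SD, n = 8), and the LEV means 2356 ± 185 (SD, n = 6) and 2336 ± 140 (SD, n = 8). The gap between the series was widest in the means of the VEH animals, which both drug contrasts share. The difference between the series was 0.20 for PB (SE 0.0709, unadjusted p = 0.0069, adjusted p = 0.267) and 0.23 for LEV (SE 0.071, unadjusted p = 0.0026, adjusted p = 0.119) by the edgeR F test, Benjamini-Hochberg adjusted. For Nrxn3 the differences were 0.18 for PB (adjusted p = 0.55, the same edgeR test) and 0.26 for LEV (adjusted p = 0.261). None of the 8 genes passed the adjusted test of this difference in any of the 3 comparisons, where 0.0689%, 0.842% and 0.023% of all transcripts passed for PB against VEH, LEV against VEH and PB against LEV. At an unadjusted p under 0.05 there were 1, 2 and 0 genes, where the shares of all transcripts were 11.1%, 12.8% and 6.91%, and DESeq2 gave the same counts of 0 adjusted and 1, 2 and 0 unadjusted.

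**Figure D3:**
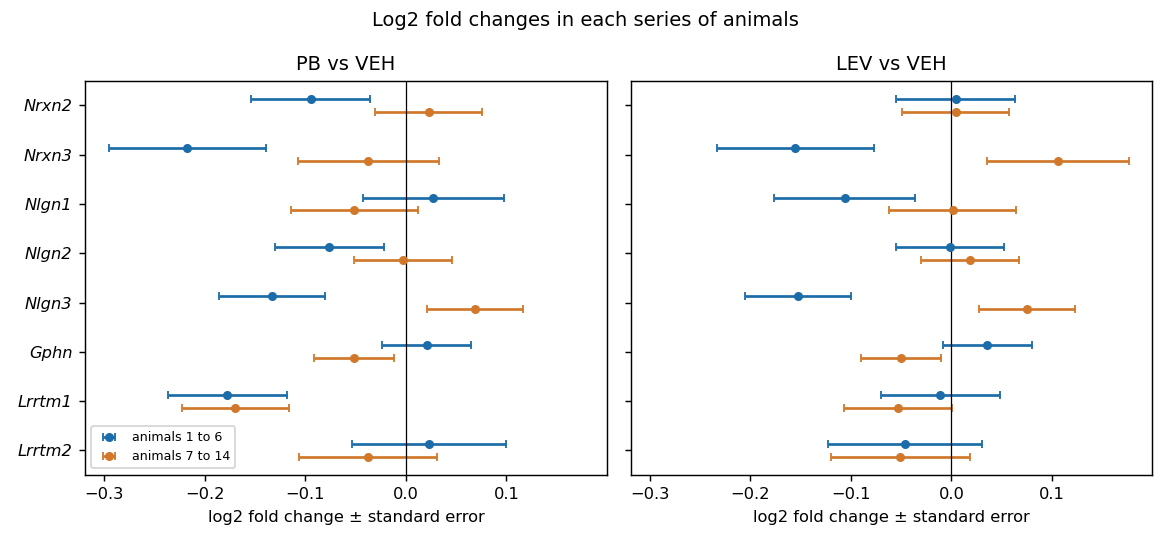
Log2 fold changes (x axis) with standard errors for the 8 genes, in animals 1 to 6 (blue) and animals 7 to 14 (orange) from 1 fit with a series-by-treatment term, for PB against VEH and LEV against VEH. Lrrtm1 after PB has nearly the same value in both series (-0.18 and -0.17), while Nlgn3 lies on opposite sides of 0 in both comparisons.

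Some pairs of the genes also varied together between animals of the same group. After the treatment and series means were removed, 28 pairs of genes were compared over 41 animals with permutation tests of 100000 resamples, adjusted over the 28 pairs. For 3 pairs both Pearson's r and Spearman's rho passed. The share of pairs that would pass among transcripts in general was not computed, so these counts do not mark the set as unusual. Nrxn2 and Nlgn2 gave the highest correlation, with r = 0.89 and rho = 0.85 (two-sided permutation p = 1e-05 for each, the smallest these resamples can give, adjusted p = 0.00028). It was 0.90 in series 1, 0.87 in series 2 and 0.87 without the 2 animals farthest from the median of Nrxn2. Nrxn2 is a presynaptic neurexin and Nlgn2 a postsynaptic neuroligin that can bind it.

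Nrxn3 and Nlgn3 gave r = 0.66 (two-sided permutation p = 2e-05, adjusted p = 0.00028) and rho = 0.58 (permutation p = 0.00015, adjusted p = 0.0021), with r = 0.48 in series 1, 0.80 in series 2 and 0.50 without the 2 farthest animals. Nlgn2 and Nlgn3 gave r = 0.48 (permutation p = 0.00146, adjusted p = 0.0102) and rho = 0.53 (permutation p = 0.00053, adjusted p = 0.00495), with r = 0.74 in series 1, 0.26 in series 2 and 0.40 without the 2 farthest animals. In 4 more pairs only Pearson's r passed, and in 21 pairs neither did. Nlgn2 and Gphn, whose proteins bind each other, gave r = 0.09 (permutation p = 0.559, adjusted p = 0.652) and rho = 0.06 (permutation p = 0.687, adjusted p = 0.776). Lrrtm1 and Lrrtm2 gave r = -0.03 (permutation p = 0.86, adjusted p = 0.864) and rho = -0.02 (permutation p = 0.891, adjusted p = 0.924). The 41 points share library preparation, depth and base composition effects, whose part in these correlations was not tested.

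**Figure D4:**
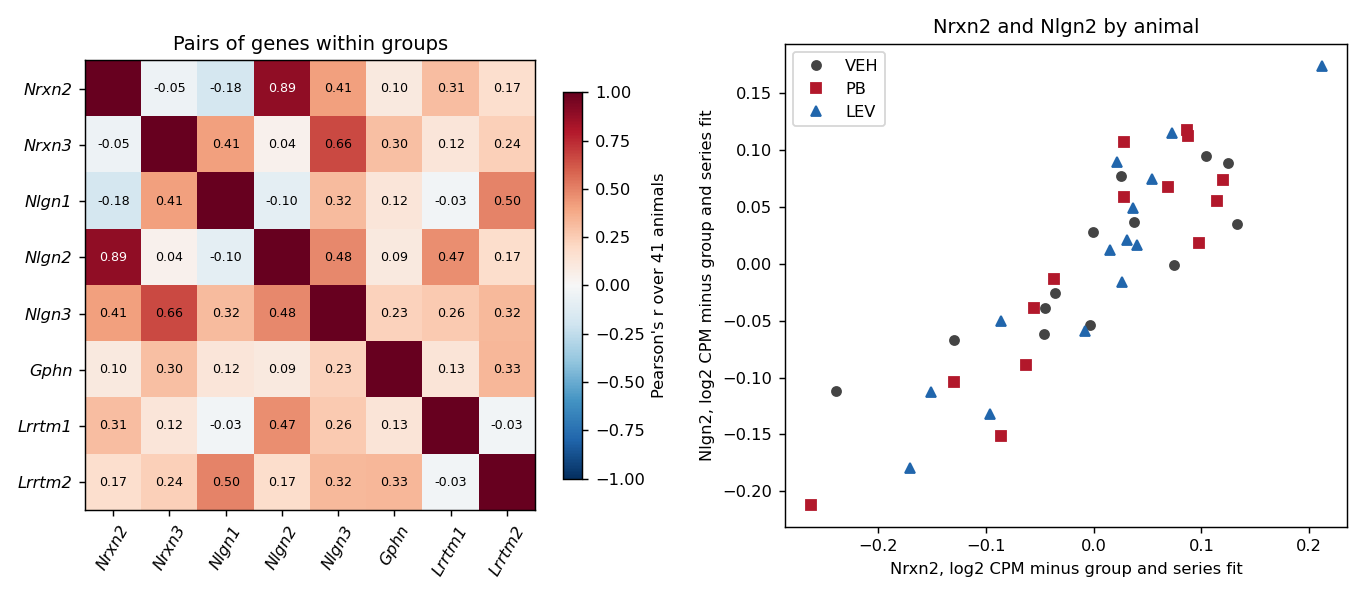
Left, Pearson's r between each pair of the 8 genes over 41 animals, on log2 CPM with the group and series fit removed; right, the same residuals of Nrxn2 (x axis) and Nlgn2 (y axis) with 1 point per animal. The Nrxn2 and Nlgn2 pair (r = 0.89) is the darkest off the diagonal. Removal of the fit centres each group, so the right panel cannot show shifts between VEH, PB and LEV. The correlation within each single group was not computed.

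Over all transcripts tested, the 3 closest to each gene by the same Pearson correlation were as follows, given as a description. Nrxn2 was closest to Nlgn2 (0.89), the microtubule-associated gene Map6 (0.88) and Lrrc4b (0.78), which encodes a postsynaptic adhesion protein. For Nrxn3 they were the sodium channel gene Scn8a (0.87), Ppm1e (0.85) and the AMPA receptor subunit Gria1 (0.82). Nlgn2 was closest to Nrxn2, Cdc42bpb (0.84) and Atp13a2 (0.82), and Nlgn3 to the kinesins Kif5c (0.86) and Kif21b (0.84) and to Akap6 (0.82). Lower values were found for the rest: Nlgn1 with Gprasp1 (0.70), Spag9 (0.68) and Prkab2 (0.66), Lrrtm1 with Grk2 (0.74), Dctn1 (0.74) and Slc7a4 (0.72), and Lrrtm2 with Tmem178b (0.76), Appbp2 (0.74) and Usp32 (0.73). Gphn stood with Ugcg (0.72), Reep5 (0.60) and Cadps (0.59). The number of transcripts with r over 0.5 was 36 for Gphn (0.276% of those compared) and 596 for Nlgn3 (4.56%), the fewest and the most of the set.

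Lists of genes that work with these organizers were examined beside them. Among 47 transcripts of 40 symbols of presynaptic and trans-synaptic partners, 1 fell after PB and 0 rose, with a median log2 fold change of -0.01. This is 2.13% of the list, beside 5.39% of all transcripts, and 11 of the 47 had an unadjusted p under 0.05, beside 20.2% of all. The 1 that fell was Clstn3, a calsyntenin of the postsynaptic membrane, at 5187 ± 254 (SD, n = 13) in VEH, 4666 ± 361 (SD, n = 14) in PB and 5173 ± 378 (SD, n = 14) in LEV. Its log2 fold change was -0.15 against VEH (SE 0.0367, adjusted p = 0.0118) and -0.15 against LEV (SE 0.036, adjusted p = 0.0134) by the edgeR F test, Benjamini-Hochberg adjusted. Next by p were Slitrk3, an adhesion protein of inhibitory synapses (-0.15, adjusted p = 0.0505), and C1ql3 (-0.24, adjusted p = 0.0729), neither of which passed edgeR's test.

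Among 20 transcripts of 18 symbols for partners of gephyrin, most of them at inhibitory synapses, 2 fell after PB and 0 rose, with a median of -0.03. The list also held Mocs1, Mocs2 and Mocs3, which are enzymes of molybdenum cofactor synthesis and not synaptic proteins. At an unadjusted p under 0.05 there were 7 of the 20. The shares over all transcripts were again 5.39% and 20.2%. Pfn2 had duplicate rows with identical values, and both are in the 7 and the 20. Mocs3 and a transcript of Mocs2 are also in the 7. Insyn1, a component of inhibitory synapses that binds gephyrin, was at 1437 ± 74.7 (SD, n = 13) in VEH, 1304 ± 62.5 (SD, n = 14) in PB and 1367 ± 91.4 (SD, n = 14) in LEV, with a PB against VEH log2 fold change of -0.14 (adjusted p = 0.00811, edgeR F test, Benjamini-Hochberg adjusted). Iqsec3, an exchange factor that binds gephyrin, was at 3231 ± 200 (SD, n = 13), 3008 ± 149 (SD, n = 14) and 3066 ± 188 (SD, n = 14), with a log2 fold change of -0.11 (adjusted p = 0.0437, the same edgeR test). Gphn itself, at -0.02, was not among the genes that fell.

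Among 20 tested transcripts of 15 symbols for excitatory postsynaptic scaffolds, 0 passed in edgeR after PB and 4 had an unadjusted p under 0.05, with a median of -0.03. The shares of all transcripts were 5.39% and 20.2%. The smallest p-values belonged to Dlg3 (-0.08, adjusted p = 0.0568), 1 transcript of Dlgap3 (-0.24, adjusted p = 0.106) and Dlg4 (-0.11, adjusted p = 0.147), in edgeR's test. After LEV 0 transcripts of the 3 lists passed in edgeR, with 5 of 47, 3 of 20 and 2 of 20 at an unadjusted p under 0.05. Of all transcripts 0.00766% passed and 5.84% were under the unadjusted limit. The smallest in each list were Lin7c (-0.17, adjusted p = 0.806), Iqsec3 (-0.08, adjusted p = 0.806) and the same Dlgap3 transcript (-0.20, adjusted p = 0.822). In PB against LEV 1 of the 20 passed, beside 4.45% of all transcripts. This transcript of Dlgap1 was lower (-0.27, adjusted p = 0.0229, edgeR), whereas another transcript of the same gene was at 0.04. In addition, 2 Dlgap3 transcripts carried identical values. Reads shared between transcripts of 1 gene are divided by estimation, so such values are uncertain.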

How the data were processed

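Hippocampal RNA of 42 rat pups was sequenced with the NEBNext Ultra kit, and 41 were analysed. According to the labels and methods, the authors aligned reads to rn6 with STAR 2.7.3a and quantified RefSeq transcripts with Partek's expectation-maximization step, giving the deposited estimated counts, of which 13.7% were not whole (0 of the values of the 8 genes). A second deposited table held the authors' own p-values, fold changes and group means from DESeq2 and was not used. Estimated counts were rounded, filtered with filterByExpr (13062 of 15516 transcripts kept), scaled by TMM and tested with edgeR 4.0.16 (quasi-likelihood test, treatment plus series, all 3 groups in 1 fit, Benjamini-Hochberg adjustment) in R 4.3.3. The study removed batch effects before its test; here the series was a model term. Rounding and division of reads between transcripts can shift low counts. Tests were checked on simulated counts. P-values concern the spread between animals. Pairwise correlations used log2 CPM with a prior count of 2.

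Alternatives were DESeq2 1.42.0, other size factors and filters, no series term, a series-by-treatment term, each series alone, all 14 VEH animals, a replicate block, 2 groups fitted alone, counts summed per symbol, covariates for choroid plexus, skeletal muscle and neuron markers, and each animal left out. The genes, lists and tests were chosen with earlier results of these data known. Named genes were the 8 members; in each list the 3 smallest p-values for PB and the smallest for LEV, plus any that passed; and the 3 transcripts closest to each member. One gene that this rule names is not reported here. Lrrtm1 was spelled in capitals in the table and matched ignoring case. Its counted transcript is not listed in GRCr8, unlike those of the other members. RefSeq promoters matched 6 of the 8 genes, not Nrxn2 and Nrxn3. The table held no row for Ptprd under its list symbol.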

Additional observations from a re-analysis of the deposited data

Results flagged for a closer look

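Within a group and series, 2 of 48 sets of values had 1 animal far from the others, where chance gives about 1 in 20. Nlgn3 in VEH animal 9 was at 1864 normalized counts, while the other 6 animals of its set lay between 2219 and 2405. Gphn in VEH animal 10 was at 1428, with the others between 1325 and 1367.

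The excluded VEH animal, which entered no comparison, stood above the range of the 13 VEH animals for 3 genes. Nrxn2 was at 1550 CPM against 708 to 953, Nlgn2 at 605 against 351 to 425, and Nlgn3 at 291 against 164 to 234. The same animal was below the range for Gphn, at 64.3 against 93.1 to 126, and for Lrrtm2, at 55.2 against 67.6 to 98.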

How the results depend on the processing

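Over 24 log2 fold changes, 15 alternatives and 41 fits with 1 animal left out, 1272 of 1344 values kept their direction and side of the threshold. Lrrtm1 in PB against VEH passed in 12 of 15 alternatives and in all 41 leave-one-out fits (-0.18 to -0.16). The count of 1 gene for PB against VEH became 0 with series 2 alone, the muscle covariate and the neuron covariate, and was 1 to 2 on leaving out 1 animal. With either covariate fewer transcripts of the whole table passed this comparison as well. The count of 1 for PB against LEV became 0 with no series term (Lrrtm1 adjusted p = 0.0785), series 2 alone (0.404), all 14 VEH animals (0.0642), only the 2 groups compared (0.0515) and the muscle covariate (0.176), and was 0 to 1 on leaving out 1 animal; the cause was not tested. With the study's fold limit added every count was 0. In LEV against VEH the count was 0 in each of these fits, although with series 1 alone 346 transcripts of the whole table passed, against 1 with both series. In series 1 alone 3 of the 8 genes had an unadjusted p under 0.05, against 0 with both series. No share of all transcripts at this unadjusted limit was computed for series 1 alone.

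Values on the other side of 0 from the one reported, none of which passed the test, were as follows. With series 2 alone, PB against VEH gave Nrxn2 0.0234 and Nlgn3 0.0695, LEV against VEH gave Nrxn3 0.1048 and Nlgn3 0.0739, and PB against LEV gave Nrxn2 0.0203, Nlgn1 -0.0504, Nlgn3 -0.0044 and Gphn 0.0005. With series 1 alone, PB against VEH gave Nlgn1 0.0277, Gphn 0.021 and Lrrtm2 0.0234, and LEV against VEH gave Gphn 0.0409. With the neuron covariate, PB against VEH gave Nlgn2 0.0043, Nlgn3 0.0367, Gphn 0.0157 and Lrrtm2 0.0062, and LEV against VEH gave Nrxn3 0.0633, Nlgn3 0.0214, Gphn 0.0174 and Lrrtm1 0.0029. With all 14 VEH animals, PB against VEH gave Gphn 0.0223 and Lrrtm2 0.0166, and LEV against VEH gave Nrxn2 -0.099, Nlgn2 -0.0661 and Gphn 0.0297. With no series term LEV against VEH gave Nrxn2 -0.0002, and with the muscle covariate PB against LEV gave Nlgn1 -0.0039 and Lrrtm2 -0.0183. Leaving out 1 animal turned Gphn (-0.0219 to 0.0048) and Nlgn3 (-0.0104 to 0.0165) in PB against LEV, Lrrtm2 (-0.0316 to 0.012) and Nlgn1 (-0.0424 to 0.0134) in PB against VEH, and Nlgn2 (-0.0057 to 0.0219), Nrxn2 (-0.0161 to 0.0155) and Nrxn3 (-0.0479 to 0.0107) in LEV against VEH.

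Animals with the same number did not deviate together. Their correlations in PB against VEH ran from -0.255 to 0.281, with 4 of 13 over 0.1 and 1 animal closest to its own number. The study balanced treatments within litter, but the labels do not name litters or say that equal numbers are littermates. Litter was therefore not a term in any fit, and this check cannot speak to it. With the replicate block Lrrtm1 was at -0.16 (adjusted p = 0.0198, edgeR) in PB against VEH and -0.14 (adjusted p = 0.0424) in PB against LEV, and each count of genes stayed at 1 while the calls over all transcripts moved from 704 to 447 in PB against VEH. For Lrrtm1 the residual spread between animals was 7.38% and the counting error 2.72%; no fit at another depth was run.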
